A study of Mus musculus with 36 samples.

Results

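The choroid plexus genes Ttr, Kl, Folr1, Aqp1, Clic6, Otx2, Kcnj13 and Enpp2 were followed as the rows with these symbols among 56092 gene rows of a count table from mouse brain. All 8 were found, and all 8 passed the filter on low counts that kept 16255 genes. They were chosen as known markers of choroid plexus epithelium, with earlier results of these data known. The table holds 36 libraries of polyadenylated RNA from pieces of brain taken on postnatal day 19. KO-aKG libraries (n = 8) came from Gpt2 knockout mice given dm-αKG, and WT-aKG libraries (n = 8) from Gpt2 wild-type mice given the same agent. KO-Veh libraries (n = 10) came from Gpt2 knockouts given vehicle, and WT-Veh libraries (n = 10) from Gpt2 wild types given vehicle. Gpt2 encodes the mitochondrial alanine transaminase, and dm-αKG is the dimethyl ester of α-ketoglutarate, injected into the peritoneum at 600 mg per kg. The labels give neither the brain region of the pieces nor the design of the Gpt2 allele, and the vehicle is not named. They call the libraries of a group biological replicates without tying each to an animal. The p-values therefore reflect how far these samples differ from one another, which may in part be technical.

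The choroid plexus is a folded sheet of epithelium around leaky capillaries that hangs in the ventricles of the brain. Its epithelial cells secrete cerebrospinal fluid by moving ions and water from blood to ventricle, and they add carrier proteins and vitamins to that fluid. A small piece of brain may or may not hold part of it, and in bulk RNA fewer cells of a type and less RNA per cell cannot be told apart. By role the 8 genes fall into 4 groups. Ttr and Folr1 encode carriers: transthyretin binds thyroxine and the retinol-binding protein, and folate receptor alpha passes folate into the fluid. Aqp1, Kcnj13 and Clic6 encode a water channel, the potassium channel Kir7.1 and a member of the intracellular chloride channel family. Kl and Enpp2 encode proteins with secreted forms, the FGF23 co-receptor klotho and autotaxin, the enzyme that makes lysophosphatidic acid. Otx2 encodes a homeodomain transcription factor that the choroid plexus needs in order to form.

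Promoters of 4 of the 8 genes were in the RefSeq table used here (GRCm38.p6), 7 promoters in all: 1 each for Kl, Aqp1 and Kcnj13 and 4 for Otx2. Ttr, Folr1, Clic6 and Enpp2 had no entry. Those of Kl, Aqp1 and Kcnj13 are shown because these genes varied together across libraries, and that of Otx2 because it holds a match to a motif that OTX proteins bind. Each runs from 250 bases before to 50 bases after an annotated transcription start, 5′ to 3′ on the strand of the gene. Capitals mark that match, TAATCC on the opposite strand, read here as GGATTA.
Kl (chr5:150952357-150952656, plus strand): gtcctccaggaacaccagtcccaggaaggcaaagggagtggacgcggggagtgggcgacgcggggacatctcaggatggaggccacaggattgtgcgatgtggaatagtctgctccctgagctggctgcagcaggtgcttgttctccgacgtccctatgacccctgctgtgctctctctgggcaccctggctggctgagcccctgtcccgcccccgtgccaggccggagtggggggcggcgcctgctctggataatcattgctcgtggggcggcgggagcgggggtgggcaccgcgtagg
Aqp1 (chr6:55336049-55336348, plus strand): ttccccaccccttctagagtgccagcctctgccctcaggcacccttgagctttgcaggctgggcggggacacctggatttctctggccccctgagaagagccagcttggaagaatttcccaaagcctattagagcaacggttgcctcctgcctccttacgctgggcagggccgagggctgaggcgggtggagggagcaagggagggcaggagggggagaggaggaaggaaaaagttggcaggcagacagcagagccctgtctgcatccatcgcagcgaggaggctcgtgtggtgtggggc
Kcnj13 (chr1:87394680-87394979, minus strand): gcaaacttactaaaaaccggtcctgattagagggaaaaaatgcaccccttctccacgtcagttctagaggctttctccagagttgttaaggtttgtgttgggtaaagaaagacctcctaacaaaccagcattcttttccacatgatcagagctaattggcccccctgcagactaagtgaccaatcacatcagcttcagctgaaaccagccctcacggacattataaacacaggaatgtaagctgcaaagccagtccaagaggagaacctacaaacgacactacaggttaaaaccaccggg
Otx2, promoter 3 of 4 (chr14:48665060-48665359, minus strand): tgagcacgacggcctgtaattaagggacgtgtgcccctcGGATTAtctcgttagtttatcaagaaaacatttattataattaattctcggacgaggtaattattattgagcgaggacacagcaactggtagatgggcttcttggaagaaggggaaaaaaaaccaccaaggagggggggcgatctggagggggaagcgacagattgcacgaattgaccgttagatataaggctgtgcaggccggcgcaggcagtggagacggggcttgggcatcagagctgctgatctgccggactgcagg

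TAATCC, searched on both strands, was found in 1 of the 7 promoters of these genes, the Otx2 promoter shown, where it begins at base 40. It was found in 2 of 24 promoters of the other choroid plexus genes described further on, and in 7.06% of all 32851 promoters of the table. GTAAACA, the core motif of forkhead factors, was found in 0 of the 7 promoters, in 1 of the 24 and in 3.65% of all promoters. These are matches of letters in windows of 300 bases, and no motif is shown to be bound.

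In the GENCODE M21 annotation of GRCm38, Ttr lies on chromosome 18 (20665280 to 20674321, plus strand), Kl on chromosome 5 (150952607 to 150993817, plus strand) and Aqp1 on chromosome 6 (55336432 to 55348555, plus strand). No other annotated gene overlaps these 3. Kcnj13 on chromosome 1 (87386363 to 87394729, minus strand) overlaps Gigyf2 on the plus strand, which averaged 19.3 CPM, and Folr1 on chromosome 7 (101858331 to 101870788, minus strand) overlaps Anapc15 on the plus strand, which averaged 8.70 CPM. Clic6 on chromosome 16 (92485736 to 92541243, plus strand) overlaps the sense transcript 2410124H12Rik, which averaged 0.862 CPM. Otx2 on chromosome 14 (48657677 to 48673819, minus strand) and Enpp2 on chromosome 15 (54838901 to 54952892, minus strand) overlap only non-coding or provisional genes that averaged at most 0.441 CPM. Strand use in the counting is not given in the sources available, so reads of overlapping genes, above all those of Kcnj13 and Gigyf2, may not be separated.

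Libraries held 5.77 to 13.3 M counts (median 11.4 M). Gpt2 itself averaged 2.37 ± 0.701 CPM in KO-aKG and 32.3 ± 3.94 CPM in WT-aKG libraries, and 2.04 ± 0.837 CPM in KO-Veh and 30.2 ± 5.61 CPM in WT-Veh libraries (SD), and no knockout library reached a wild-type one. The pieces differed in brain region. The score of 13 cerebellum markers, their mean log2 CPM, was 5.39 to 7.73 in 9 libraries and 1.48 to 4.34 in the other 27. Among these 9 cerebellum-rich libraries 1 was KO-aKG, 4 were WT-aKG, 1 was KO-Veh and 3 were WT-Veh. All CPM values are scaled by TMM and not divided by gene length. Levels are compared between libraries within a gene, or within the sum of a list, and not between genes.

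Ttr showed the widest range. It was 39.2, 415 and 940 CPM at its lowest, median and highest in KO-aKG libraries, and 24.7, 661 and 1479.4 CPM in WT-aKG libraries. Its level was 12.2, 182 and 973 CPM in KO-Veh libraries, and 26.7, 442 and 1778.2 CPM in WT-Veh libraries. Each group thus held libraries poor in Ttr beside libraries rich in it, and all 4 groups overlapped. Across all 36 libraries the highest level, in WT-Veh replicate 6, was 146 times the lowest, in KO-Veh replicate 9.

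Folr1 was 0.189, 1.94 and 3.18 CPM at its lowest, median and highest in KO-aKG libraries, and 0.446, 3.07 and 5.49 CPM in WT-aKG libraries. It was 0, 0.839 and 3.63 CPM in KO-Veh libraries, and 0.0839, 1.10 and 4.91 CPM in WT-Veh libraries. The groups overlapped here too, on counts of 0 to 64 per library. The single 0, in KO-Veh replicate 6, allows a level of up to 0.247 CPM (3 counts of that library, counting error only).

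The channels were measured on few counts. Aqp1, on 1 to 44 counts per library, was 0.280, 0.803 and 1.92 CPM at its lowest, median and highest in KO-aKG libraries, and 0.552, 0.935 and 1.78 CPM in WT-aKG libraries. It was 0.110, 0.637 and 1.51 CPM in KO-Veh libraries, and 0.114, 1.17 and 3.38 CPM in WT-Veh libraries. The WT-Veh libraries thus held both very low and the highest Aqp1 levels. Kcnj13 was 0.606, 1.67 and 4.46 CPM in KO-aKG, 0.941, 1.72 and 3.28 CPM in WT-aKG libraries, 0.652, 1.42 and 2.27 CPM in KO-Veh, and 0.296, 2.05 and 5.60 CPM in WT-Veh libraries. Clic6 was 1.80, 5.0 and 8.26 CPM in KO-aKG, 0.446, 4.98 and 12.8 CPM in WT-aKG libraries, 0.746, 2.49 and 8.16 CPM in KO-Veh, and 0.755, 5.16 and 14.0 CPM in WT-Veh libraries. For both genes all 4 groups overlapped, and the highest library was again WT-Veh replicate 6.

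Kl was 1.70, 3.71 and 6.53 CPM at its lowest, median and highest in KO-aKG libraries, 1.26, 3.01 and 6.95 CPM in WT-aKG libraries, 1.62, 2.89 and 4.79 CPM in KO-Veh, and 1.78, 4.70 and 12.9 CPM in WT-Veh libraries. Enpp2 was 113, 196 and 342 CPM in KO-aKG, 103, 189 and 427 CPM in WT-aKG libraries, 106, 145 and 244 CPM in KO-Veh, and 118, 246 and 502 CPM in WT-Veh libraries. Enpp2 had the narrowest range of the 8 genes, its highest library 4.90 times its lowest, and its level never came near 0. Autotaxin is known to be made by oligodendrocytes as well as by choroid plexus.

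Otx2 was 1.49, 2.35 and 5.76 CPM at its lowest, median and highest in KO-aKG libraries, 0.465, 4.93 and 8.63 CPM in WT-aKG libraries, 0.249, 1.57 and 12.1 CPM in KO-Veh, and 0.755, 3.25 and 17.3 CPM in WT-Veh libraries. Its highest library was not that of the other genes. The top Otx2 library, WT-Veh replicate 1, ranked 27 of 36 for Ttr. Otx2 is known to be made by granule neuron precursors of the posterior cerebellum as well as by choroid plexus.

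**Figure D1:**
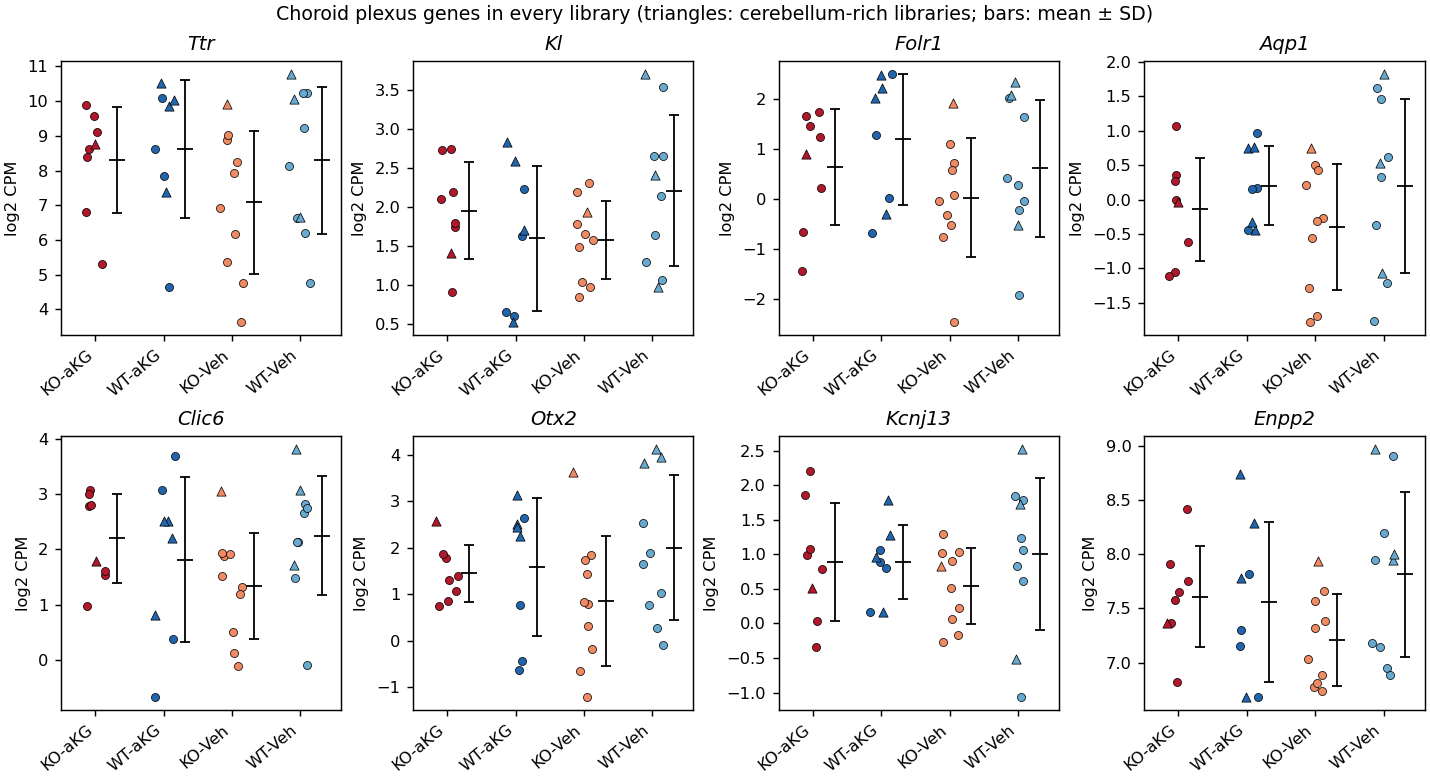
Level of each choroid plexus gene in every library, on a log2 CPM axis, with 1 point per library, triangles for the 9 cerebellum-rich libraries and bars for the mean ± SD of each group. All 4 groups overlap for each of the 8 genes, and Ttr spans 12.2 to 1778.2 CPM.

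The mean of each of the 8 genes was lowest in KO-Veh libraries. Means of neighbouring groups in the order of levels differed by less than the larger of their SDs, for all 3 neighbouring pairs of each gene. For Ttr the means from the lowest were KO-Veh at 278 ± 305, KO-aKG at 447 ± 305, WT-Veh at 644 ± 627 and WT-aKG at 668 ± 530 CPM (SD). For Enpp2 they were KO-Veh at 154 ± 46.9, KO-aKG at 204 ± 67.5, WT-aKG at 211 ± 112 and WT-Veh at 255 ± 139 CPM. WT-Veh had the highest mean for the other genes except Folr1, whose highest mean was 2.93 ± 2.15 CPM in WT-aKG libraries.

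Most of the variation lay within groups. The SD of log2 CPM within groups was 1.95 for Ttr, 1.34 for Otx2, 1.27 for Folr1, 1.10 for Clic6, 0.938 for Aqp1, 0.809 for Kcnj13, 0.779 for Kl and 0.615 for Enpp2, against a median of 0.358 over all genes tested. Only 0.326% of genes had a larger value than Ttr, and 19.0% had a larger value than Enpp2. The share of the variance between the 4 groups was 5.28% for Kcnj13 to 13.3% for Enpp2, beside a median of 12.7% over all genes.

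The same libraries tended to be rich in several of the genes. WT-Veh replicate 6 was among the 9 highest libraries for 8 of the 8 genes. At the high end, 8 libraries were among the 9 highest for at least 5 genes, namely 0 KO-aKG, 3 WT-aKG, 1 KO-Veh and 4 WT-Veh libraries. At the low end, 6 libraries were among the 9 lowest for at least 5 genes, namely 1 KO-aKG, 1 WT-aKG, 3 KO-Veh and 1 WT-Veh library. These ranks describe the libraries and were not tested.

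With vehicle, each of the 8 genes had a lower fitted level in knockouts than in wild types, and none passed the test. The log2 fold changes of KO-Veh against WT-Veh, from edgeR's quasi-likelihood fit over all genes, were -0.73 to -1.25 with a median of -0.91, beside a median of -0.02 over all genes tested. Otx2 had the largest, -1.25 (95% interval -2.42 to -0.07, adjusted p = 0.211), and Ttr the next, -1.21 (-2.69 to 0.26, adjusted p = 0.333). The 95% intervals were derived from the fold change and its test statistic. They are not adjusted for the number of genes tested, so an interval without 0 is not a call. Enpp2 came nearest to the threshold with the smallest change and the smallest error, -0.73 ± 0.27 (SE, adjusted p = 0.113). Kl followed at -0.88 ± 0.35 (adjusted p = 0.141).

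In that contrast 0 of the 8 genes were called at an adjusted p under 0.05 by edgeR, DESeq2 or limma, where edgeR called 4.31% of all genes tested and 1.72% as lower. At an unadjusted p under 0.05, 6 of the 8 passed, all lower, beside 21% of all genes in either direction and 11% as lower. Aqp1 (-0.94, adjusted p = 0.231), Clic6 (-0.96, adjusted p = 0.223) and Kcnj13 (-0.75, adjusted p = 0.234) were among these, and Folr1 (-0.80, adjusted p = 0.429) and Ttr were not. The 8 genes vary together across libraries, so they are not 8 separate observations of a difference. The interval of Enpp2 ran from -1.28 to -0.18 and that of Kl from -1.58 to -0.17, while those of Ttr and Folr1 included 0.

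Markers of other cells and regions differed between the same libraries. All 12 oligodendrocyte genes had fold changes below 0 (median -0.61), 0 of them called, with summed levels of 4842.8 to 17824.7 CPM in KO-Veh and 4199.0 to 39282.4 CPM in WT-Veh libraries. All 13 cerebellum genes were below 0 (median -1.10), 0 called, with sums of 68.9 to 5110.6 CPM in KO-Veh and 166 to 4436.0 CPM in WT-Veh libraries. All 5 tested of 7 hindbrain genes were below 0 (median -3.71), 0 called, with sums of 0.352 to 10.2 CPM in KO-Veh and 0.796 to 171 CPM in WT-Veh libraries. Of 8 thalamus and habenula genes 6 were below 0 (median -0.47), with sums of 113 to 280 CPM in KO-Veh and 117 to 516 CPM in WT-Veh libraries. The lists of cortex, striatum and hypothalamus mostly had the other direction in this contrast. All 8 cerebral cortex genes had fold changes above 0 (median 0.62), with sums of 32.7 to 827 CPM in KO-Veh and 40.4 to 681 CPM in WT-Veh libraries. All 8 striatum genes were above 0 (median 0.78), with sums of 103 to 868 CPM in KO-Veh and 75.6 to 355 CPM in WT-Veh libraries. Of 7 tested hypothalamus genes 5 were above 0 (median 1.71), with sums of 7.45 to 823 CPM in KO-Veh and 5.57 to 283 CPM in WT-Veh libraries. In each of these lists 0 genes were called, and no gene was at 0 in every library. The part of oligodendrocyte, hindbrain, thalamus, cortex, striatum and hypothalamus tissue in the fold changes was not tested.

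For cerebellum the fit was repeated with its score as a covariate and without the 9 cerebellum-rich libraries. The median of the 8 fold changes was then -0.71 and -0.78, all 8 stayed below 0, and none was called. Otx2 moved most, to -0.48 (adjusted p = 0.526) with the covariate and -0.59 (adjusted p = 0.548) without those libraries. Ttr was -1.02 and -1.32 in these fits. Otx2, not called with all libraries, passed when 1 library was left out. Without KO-Veh replicate 7, which had 12.1 CPM and was the only cerebellum-rich KO-Veh library, the Otx2 change was -1.96 with an adjusted p of 0.0264 by edgeR.

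With dm-αKG, no direction was shared by the 8 genes. In KO-aKG against WT-aKG, 5 were below 0 and 3 above, with a median of -0.17 beside -0.02 over all genes, and 0 were called by edgeR, DESeq2 or limma, where edgeR called 1.87% of all genes. None of the 8 had an unadjusted p under 0.05, beside 15.7% of all genes. The carriers were lowest, Folr1 at -0.69 ± 0.61 (SE, adjusted p = 0.620) and Ttr at -0.58 ± 0.80 (adjusted p = 0.781). Kl (0.23 ± 0.39), Kcnj13 (0.17 ± 0.41) and Clic6 (0.03 ± 0.50) were above 0, with adjusted p of 0.825, 0.889 and 0.986. Without the 9 cerebellum-rich libraries Ttr was 0.06, Otx2 0.21, Enpp2 0.43 and Clic6 -0.08, so their direction turned. That fit leaves out 4 of the 8 WT-aKG libraries and 1 of the 8 KO-aKG libraries. The median of the 8 turned too, to 0.135 without these libraries and 0.145 with the cerebellum score as a covariate, and it was 0.013 to 0.031 by limma. In this contrast all 13 cerebellum genes were below 0 (median -2.13), 0 of them called, with sums of 69.6 to 1550.8 CPM in KO-aKG libraries and 80.3 to 4120.2 CPM in WT-aKG libraries.

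Treatment was compared within each genotype. In WT-aKG against WT-Veh, 6 of the 8 genes were below 0 with a median of -0.33, led by Kl at -0.68 ± 0.37 (SE, adjusted p = 0.643), while Folr1 was 0.53 ± 0.57 (adjusted p = 0.922) and Ttr 0.05 ± 0.76 (adjusted p = 1). None was called. Over all genes edgeR called 0 (0%), with 1389 (8.55%) at an unadjusted p under 0.05, and DESeq2 called 59.

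In KO-aKG against KO-Veh, 8 of the 8 genes were above 0, with a median of 0.48 beside -0.01 over all genes. Clic6 had the largest change, 0.78 ± 0.48 (SE, adjusted p = 0.534), followed by Ttr at 0.69 ± 0.76 (adjusted p = 0.756) and Folr1 at 0.63 ± 0.60 (adjusted p = 0.713), and Otx2 the smallest, 0.03 ± 0.63 (adjusted p = 0.988). None was called, and over all genes edgeR, DESeq2 and limma each called 0 (0%), with 1973 (12.1%) at an unadjusted p under 0.05 by edgeR. The contrast shares the KO-Veh libraries with that of KO-Veh against WT-Veh, so the opposite signs of the 2 contrasts are not independent. The 12 oligodendrocyte genes and the 5 tested hindbrain genes were above 0 as well, with medians of 0.86 and 3.72 and 0 called, and their sums in KO-aKG libraries were 8542.0 to 28685.7 CPM and 0.635 to 112 CPM, against the 4842.8 to 17824.7 CPM and 0.352 to 10.2 CPM of KO-Veh libraries. Their part in the values of the 8 genes was not tested.

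Whether the genotype difference changed with treatment was tested by the interaction, the difference of KO-aKG against WT-aKG minus that of KO-Veh against WT-Veh. It was above 0 for 8 of the 8 genes, with a median of 0.68, and called for none. Over all genes 7908 of 16255 were above 0, with a median of -0.01. The 8 genes vary together and are not 8 separate observations. All 12 oligodendrocyte and 5 tested hindbrain genes were also above 0 (medians 0.64 and 3.06), and all 8 cerebral cortex genes below 0 (median -0.68). The part of these tissues was not tested. Kl had the largest, 1.11 ± 0.52 (SE, p = 0.0408 before and 0.961 after adjustment in edgeR's quasi-likelihood test). Over all genes 0 (0%) were called and 729 (4.48%) had an unadjusted p under 0.05, and DESeq2 and limma also called 0.

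**Figure D2:**
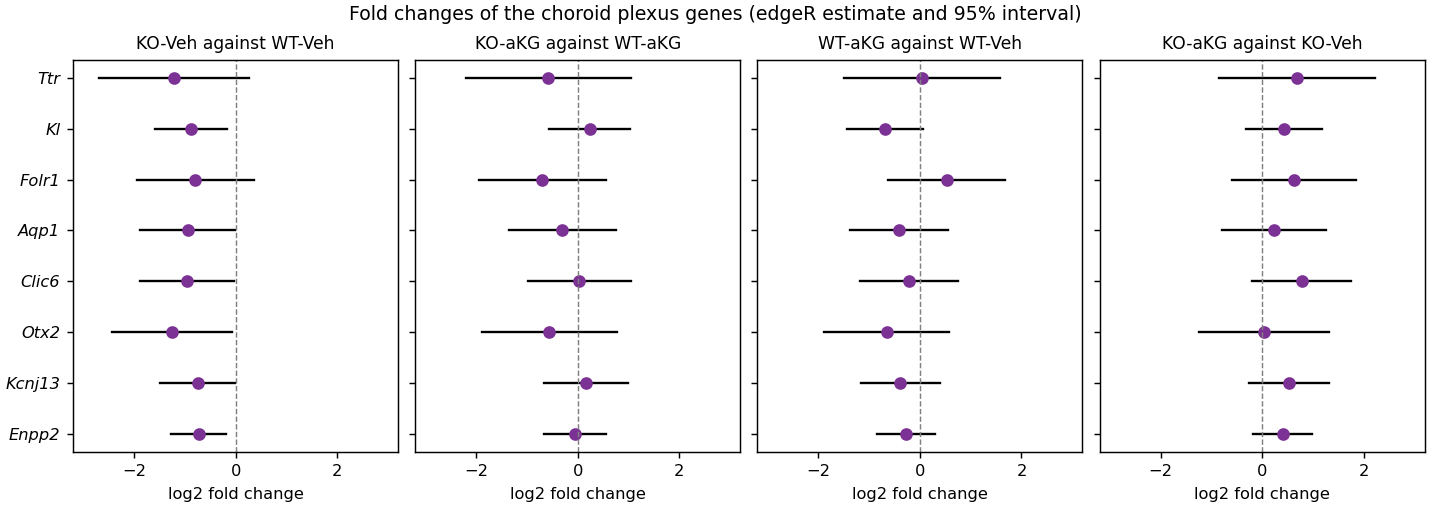
Log2 fold change of each gene in 4 contrasts, with the edgeR estimate as a point and its 95% interval as a bar, and the dashed line at 0. The intervals are not adjusted for the number of genes tested, and no gene was called in any panel. With vehicle all 8 points lie below 0, from -0.73 to -1.25, and the other 3 panels have intervals that all include 0.

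A further list of choroid plexus genes was read beside them. Of its 21 measured genes, 18 were tested and 0 were called in any contrast, where edgeR called 4.31% of all genes in KO-Veh against WT-Veh, 1.87% in KO-aKG against WT-aKG and 0% in the others. In KO-Veh against WT-Veh 16 of 18 were below 0 with a median of -0.49, in KO-aKG against WT-aKG 10 of 18 with a median of -0.10, in WT-aKG against WT-Veh 14 of 18 with a median of -0.32, and in KO-aKG against KO-Veh 6 of 18 with a median of 0.31. Over all genes the share below 0 was 53.3%, 53.3%, 52.2% and 51.6% in the same order of contrasts. In KO-Veh against WT-Veh the 18 ran from -2.50 to 0.44. There 7 of the 18 had an unadjusted p under 0.05 by edgeR, beside 21% of all genes. Several of these genes vary together across libraries, so they are not separate observations of a difference. The most highly counted were Igfbp2, an IGF-binding protein (-0.48 ± 0.17, SE, adjusted p = 0.0967 in KO-Veh against WT-Veh), Lbp, the lipopolysaccharide-binding protein (0.44 ± 0.31, adjusted p = 0.423), Ecrg4, a secreted peptide precursor (-0.33 ± 0.39, adjusted p = 0.656), and Msx1, a homeobox factor (-0.59 ± 0.21, adjusted p = 0.106).

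Genes that work with the 8 were read from lists of their pathways. Of 12 tested genes for ion and water transport into cerebrospinal fluid, 3 of which are also in the list above, 2 fell in KO-Veh against WT-Veh and 0 rose, where 1.72% of all genes fell and 4.31% changed in either direction. They were Slc12a4, a potassium-chloride cotransporter (-0.47 ± 0.13, SE, adjusted p = 0.025), and Aqp4, the water channel of astrocyte end-feet (-1.22 ± 0.33, adjusted p = 0.0264). Of 9 tested genes for thyroid hormone and retinol, the cargo of transthyretin, 1 rose and 0 fell, against the same background: Rbp4, the retinol-binding protein that transthyretin carries, at 1.15 ± 0.26 (adjusted p = 0.00735), where Ttr itself was -1.21 and not called. Among KO-Veh libraries the cerebellum-rich replicate 7 had the highest ion and water score (4.69) and the lowest thyroid hormone and retinol score (3.63). The fits that allow for cerebellum were read for the 8 genes only. The part of the tissue piece in the calls of Slc12a4, Aqp4 and Rbp4 was not tested.

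None of the 4 tested folate transport genes was called in any contrast, nor any of the 5 tested genes of lysophosphatidic acid signalling or the 3 tested relatives and FGF receptors of klotho. Among other cell types, 1 of 11 genes of meninges fell in KO-Veh against WT-Veh, where 1.72% of all genes fell. It was Lum (-0.996 ± 0.28, SE, adjusted p = 0.0349), a collagen-binding proteoglycan. So did 1 of 8 endothelial genes, Plvap (-0.87 ± 0.22, adjusted p = 0.0177), which builds the diaphragms of leaky capillaries such as those of choroid plexus. Plvap also fell in KO-aKG against WT-aKG, at -0.94 ± 0.25 (adjusted p = 0.0385), where 1.87% of all genes changed. Of 7 tested hypothalamus genes, 2 rose there and 0 fell. They were Pmch and Hcrt, peptides of lateral hypothalamus, at 6.17 and 5.90 on the log2 scale (adjusted p = 0.0376 and 0.0253). Summed levels of the hypothalamus list were 7.62 to 886 CPM in KO-aKG libraries and 6.57 to 90.7 CPM in WT-aKG libraries. The part of the tissue piece in the calls of Lum, Plvap, Pmch and Hcrt was not tested. Ependymal, oligodendrocyte, cerebellum, hindbrain, cortex, striatum and thalamus lists had 0 called genes in all contrasts.

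Across libraries the other 7 genes were higher where Ttr was higher. After subtraction of group means, Spearman's rho with Ttr over 36 libraries was 0.909 for Folr1, 0.801 for Aqp1, 0.765 for Kl, 0.741 for Enpp2, 0.636 for Clic6, 0.537 for Kcnj13 and 0.51 for Otx2. Pearson's r in the same order was 0.891, 0.760, 0.715, 0.713, 0.705, 0.464 and 0.536. All 7 relations passed a 2-sided permutation test adjusted over the 7, with the highest adjusted p of 0.00432 for rho and 0.00628 for r. For the 4 highest rho the unadjusted p was 1e-05, the smallest that the resamples can give. Without the 2 libraries farthest from the median of Ttr, r was 0.915 for Folr1 and 0.470 for Otx2, the highest and lowest of the 7.

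The relations held outside the cerebellum-rich libraries, with rho in 27 libraries from 0.868 for Folr1 to 0.396 for Kcnj13 (adjusted p = 0.0496) by permutation. In the 9 cerebellum-rich libraries rho was 0.950 for Folr1 and 0.983 for Kcnj13 but 0.217 for Otx2, given without a test. Within single groups rho was 0.310 or more for 6 of the 7 genes in KO-aKG libraries, and -0.333 for Otx2. In KO-Veh libraries Kcnj13 had the lowest value, 0.297. All 28 pairs among the 8 genes had rho above 0, with a median of 0.557, from 0.054 for Otx2 with Kcnj13 to 0.909 for Ttr with Folr1. Spearman's correlation of the 8 genes with total counts, given as a description, was -0.253 to 0.102, and with the share of mitochondrial ribosomal RNA -0.374 to -0.044.

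**Figure D3:**
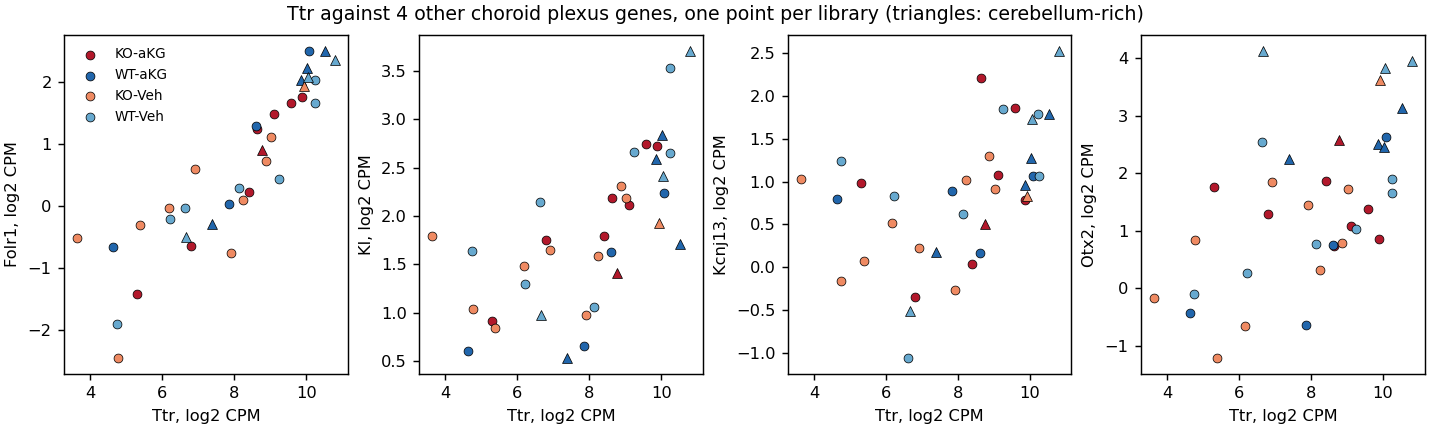
Folr1, Kl, Kcnj13 and Otx2 against Ttr, both axes in log2 CPM, with 1 point per library coloured by group and triangles for the 9 cerebellum-rich libraries. Folr1 lies close to a line (rho 0.909), while Otx2 spreads widely (rho 0.51), with WT-Veh replicate 1 high in Otx2 and low in Ttr.

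The genes most like Ttr were sought among the 13368 genes averaging 1 CPM or more, by the same rho over 36 libraries. The 10 highest were Folr1 (0.909), the potassium channel subunit Kcne2 (0.893), Tmem72 (0.885), Aqp1 (0.801), Kl (0.765), the calmodulin-like Calml4 (0.763), the secreted BMP and Wnt antagonist Sostdc1 (0.758), Cab39l (0.755), Enpp2 (0.741) and the cytochrome oxidase subunit Cox8b (0.711). Of these 10, 4 are among the 8 genes, 4 are in the further choroid plexus list, and Cab39l and Cox8b are in neither. Clic6 ranked 11, Kcnj13 ranked 53 and Otx2 ranked 92.

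The nearest genes of the other 7 differed. Folr1 was nearest to Ttr (0.909), Kcne2 (0.908) and Tmem72 (0.869), Aqp1 to Tmem72 (0.839), Ttr (0.801) and Folr1 (0.718), and Kl to Kcne2 (0.807), Calml4 (0.803) and Folr1 (0.801). Enpp2 was nearest to Kcne2 (0.818), the calpain inhibitor Cast (0.767) and Trim59 (0.763), and Clic6 to Calml4 (0.718), Folr1 (0.717) and the RNA-binding Rbm4b (0.705). Kcnj13 was nearest to Msx1 (0.770), the RNA-binding Bicc1 (0.683) and Kl (0.665). Otx2 was nearest to Osbpl9 (0.856), the mitochondrial nucleoside kinase Dguok (0.851) and the chromatin protein Hmgb2 (0.850), none of them in the choroid plexus lists.

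**Figure D4:**
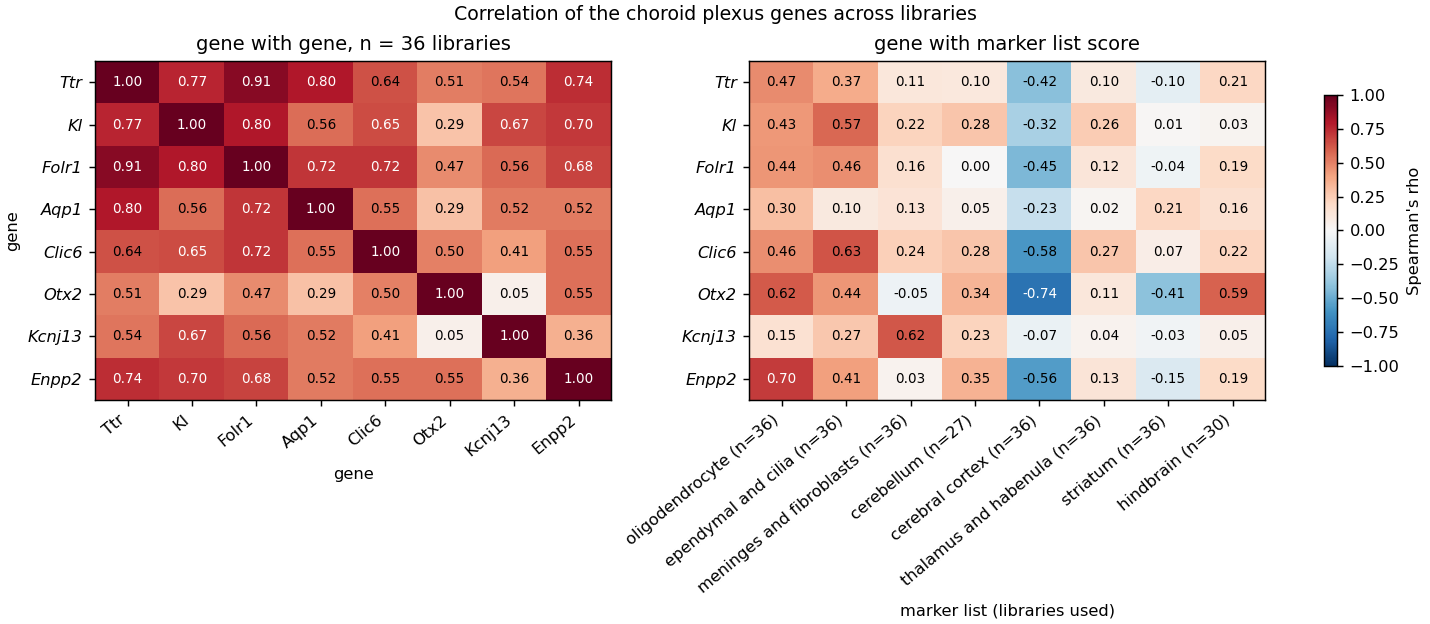
Spearman's rho of log2 CPM less the group mean, gene with gene over 36 libraries (left) and gene with the score of 8 marker lists (right), coloured from -1 to 1. For the cerebellum list the 27 and for the hindbrain list the 30 lower libraries are shown, without subtraction of group means. The left block is positive throughout, and on the right Otx2 with cerebral cortex is lowest at -0.74.

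Each gene was also set against the scores of 8 lists of other cells and regions, 80 relations in all, of which 9 passed the permutation test after adjustment over the 80. All 9 passed for r as well as for rho, with the highest adjusted p for r at 0.0236. For cerebellum and hindbrain the libraries fell into separate clusters, and values were taken within each. Enpp2 followed the oligodendrocyte score (r = 0.765, rho = 0.703, adjusted permutation p = 0.0012 for rho) and ran against the cerebral cortex score (r = -0.538, rho = -0.559, adjusted permutation p = 0.0141). Without the 2 libraries farthest from the median of the oligodendrocyte score, its r was 0.687, and -0.550 with cortex after the same step. Outside the 9 cerebellum-rich libraries rho was 0.502 with oligodendrocyte (r = 0.660, adjusted permutation p = 0.084 for rho) and -0.385 with cortex (r = -0.476, adjusted permutation p = 0.229 for rho), no longer called.

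Otx2 had the most relations. It followed the oligodendrocyte score (r = 0.589, rho = 0.616, adjusted permutation p = 0.00606) and ran against the cerebral cortex score (r = -0.773, rho = -0.736, adjusted permutation p = 8e-04). In the 30 libraries low in hindbrain markers it followed that score (r = 0.548, rho = 0.593, adjusted permutation p = 0.0063), taken without subtraction of group means. With group means subtracted, r there was 0.576 (unadjusted permutation p = 2.50e-04 for r). Outside the cerebellum-rich libraries rho was 0.404 with oligodendrocyte (r = 0.407, adjusted permutation p = 0.16 for rho) and -0.497 with cortex (r = -0.437, adjusted permutation p = 0.0682 for rho). Of the 30 libraries low in hindbrain markers, 7 were cerebellum-rich, and in the other 23 rho with the hindbrain score was 0.300 (r = 0.177, unadjusted permutation p = 0.162 for rho), so the relation no longer passed. Without the 2 libraries farthest from the median of the score, r was 0.674 for oligodendrocyte, -0.693 for cortex and 0.473 for hindbrain.

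Levels in the 9 cerebellum-rich libraries are given beside those of the other 27 as a description, without a test. Otx2 was 4.57, 8.63 and 17.3 CPM at its lowest, median and highest in the 9 cerebellum-rich libraries, and 0.249, 1.63 and 6.03 CPM in the other 27. The median of Ttr was 973 CPM in the 9 and 280 CPM in the 27, and that of Folr1 was 3.88 CPM in the 9 and 0.981 CPM in the 27. For Kl it was 3.63 CPM in the 9 and 3.18 CPM in the 27, and for Kcnj13 1.76 CPM in the 9 and 1.67 CPM in the 27. For Otx2 only the upper end of the 27 reached the lower end of the 9, while for the other 7 genes the 2 ranges overlapped broadly. Enpp2 had medians of 246 CPM in the 9 and 159 CPM in the 27, Clic6 of 5.53 CPM in the 9 and 3.52 CPM in the 27, and Aqp1 of 1.27 CPM in the 9 and 0.817 CPM in the 27. Within the clusters no relation of Otx2 with the cerebellum score passed the test, with rho of 0.533 in the 9 libraries (exact permutation p = 0.148, adjusted 0.381) and 0.337 in the 27 (permutation p = 0.0865, adjusted 0.294).

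Clic6 and Kl followed the ependymal score, a list of genes of cilia and ventricle lining. Spearman's correlation was 0.627 for Clic6 (r = 0.657, adjusted permutation p = 0.004) and 0.575 for Kl (r = 0.583, adjusted permutation p = 0.00606). Outside the cerebellum-rich libraries they were 0.702 and 0.720 (both adjusted permutation p = 0.00408). Clic6 also ran against the cortex score, with rho of -0.581 (r = -0.501, adjusted permutation p = 0.00606). Kcnj13 followed the score of meninges and fibroblasts, with r = 0.667 and rho = 0.618 (adjusted permutation p = 0.0048), and 0.658 outside the cerebellum-rich libraries (adjusted permutation p = 0.0144). Without the 2 libraries farthest from the median of the score, r was 0.581 for Clic6 and 0.559 for Kl with ependyma, -0.529 for Clic6 with cortex, and 0.652 for Kcnj13 with meninges.

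For rho, Ttr, Folr1 and Aqp1 had no relation with any of these lists that passed after adjustment. Folr1 with the ependymal score passed for r only (r = 0.484, adjusted permutation p = 0.0331; rho = 0.464, adjusted permutation p = 0.0515). Without the 2 libraries farthest from the median of that score its r was 0.434, and outside the cerebellum-rich libraries its rho was 0.584 (r = 0.506, adjusted permutation p = 0.0282 for rho). Among the lists taken over all 36 libraries, the highest for Ttr was with oligodendrocyte, with r = 0.464 and rho = 0.475 (adjusted permutation p = 0.0515).

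**Figure D5:**
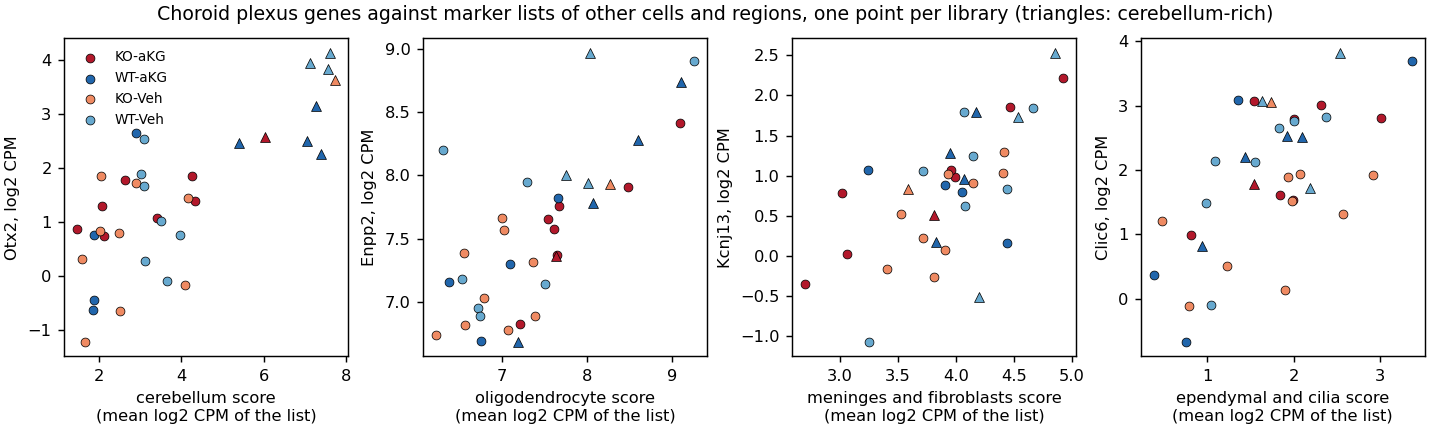
Otx2 against the cerebellum score, Enpp2 against the oligodendrocyte score, Kcnj13 against the score of meninges and fibroblasts, and Clic6 against the ependymal score, with 1 point per library. Axes are log2 CPM and mean log2 CPM of the list, and triangles mark the 9 cerebellum-rich libraries, where Otx2 is 4.57 CPM or more.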

How the data were processed

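Per the labels' protocols, RNA from 10 mg of brain was primed with oligo-dT primers carrying a sample barcode and a molecular identifier, and the cDNA was tagmented and amplified. Such libraries read mainly near the 3′ end of transcripts. Per the submitters' processing notes, reads were handled with featureCounts 2.0.6, HISAT2 2.2.1, Trim Galore 0.6.10, SAMtools 1.6, FastQC 0.12.1 and deepTools, with builds mm10 and mm39 named without a role. Strand use and collapsing of identifiers are not stated in the sources available.

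Estimated counts were deposited by the authors whole numbers without normalisation, next to a CPM table of 21637 genes. From the CPM values, 85.6% to 88.7% per library came out as whole counts within 0.02, and at least 99.99% matched the count table within 0.51, so the deposited counts are rounded. Of 56184 rows, 92 spike-in rows holding 1 count in all were left out. Libraries held 5.77 to 13.3 M counts, and precision follows the counts behind each gene. Among 146 pairs of libraries of 1 group, 0 were identical.

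Counts were fitted with edgeR 4.0.16 in R 4.3.3: filterByExpr, TMM, and 1 robust quasi-likelihood model of 36 libraries in 4 groups, with Benjamini-Hochberg adjustment over 16255 genes and a threshold of 0.05. On simulated counts the fit was checked. Log2 CPM used a prior count of 2. Correlations were tested in Python 3.11.15 with 100000 permutations of libraries, or exactly for fewer than 10 libraries. Libraries were permuted within groups where group means were subtracted. Elsewhere, as in the cerebellum and hindbrain clusters, they were permuted across groups. All 8 genes were named throughout. Neighbours were the 10 highest for Ttr and 3 highest for each other gene, without predicted genes, and of each list up to 4 called genes. Alternatives were DESeq2 1.42.0, limma 3.58.1 on the CPM table, other scaling and filters, a replicate block, a cerebellum covariate, and fits without single libraries. The members and lists were chosen with earlier results of these data known.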

Additional observations from a re-analysis of the deposited data

How the results depend on the processing

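Over 40 fold changes of the 8 genes in 5 contrasts, 1832 alternative values were computed. Of these 1779 kept their direction and side of the threshold, 52 turned direction in 10 of the 40, none of them called, and 1 passed the threshold. Values recorded for Aqp1 in fits of KO-aKG with only 1 other group may belong to another gene, 1 of the 52 among them. With vehicle, 368 of 368 values stayed below 0. These counts include fits without a library of a group outside the contrast, which could hardly move its fold change. Ttr with vehicle, for example, stayed at -1.215 without WT-aKG replicate 1. The median of the 8 in KO-Veh against WT-Veh was -1.16 to -0.67 without single libraries and -0.92 to -0.51 under other alternatives. The number called there was 0 to 1 without single libraries: the 1 is Otx2 without KO-Veh replicate 7.

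In KO-aKG against WT-aKG, the cerebellum covariate gave 0.20 for Otx2 and 0.12 for Enpp2. Leaving out the 9 cerebellum-rich libraries, an alternative added after seeing the data, gave 0.064 for Ttr, -0.079 for Clic6, 0.21 for Otx2 and 0.43 for Enpp2. The median of the 8 turned to 0.145 and 0.135 under these alternatives, and was 0.013 to 0.031 by limma. Limma on the CPM table gave Enpp2 as 0.220 at a pseudocount of 0.5, 0.220 with a minimum mean of 1 CPM and 0.217 at a pseudocount of 2. In WT-aKG against WT-Veh, Ttr was -0.001 with the covariate and -0.22 without the cerebellum-rich libraries, where Clic6 was 0.30. The value recorded for Aqp1 in KO-aKG against KO-Veh was -0.27 when only these groups were fitted, against 0.231 in the main fit. Aqp1 lay near the filter on low counts there, so this value may belong to another gene. It is not read as a turn of Aqp1. The cause of the other turns was not tested.

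Without single libraries, values turned for Clic6 (-0.14 to 0.38), Enpp2 (-0.195 to 0.179) and Kcnj13 (-0.12 to 0.35) in KO-aKG against WT-aKG, Ttr (-0.23 to 0.37) and Clic6 (-0.558 to 0.049) in WT-aKG against WT-Veh, Otx2 (-0.20 to 0.75) and Aqp1 (-0.051 to 0.419) in KO-aKG against KO-Veh, and Folr1 (-0.15 to 0.51) in the interaction.

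Whether replicate numbers pair the libraries is not known. Of 50 same-numbered pairs, 26 had a correlation of deviations over 0.1 (-0.652 to 0.805, median 0.107), and differently numbered pairs were not compared. With a replicate block the median in KO-Veh against WT-Veh was -0.79, and 0 of the 8 genes were called in any contrast, as in the main fit. Over all genes the block gave 623 calls against 701 in KO-Veh against WT-Veh. In KO-aKG against WT-aKG it gave 325 against 304.

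Genes called among all 16255 in KO-Veh against WT-Veh numbered 701, against 1662 without KO-Veh replicate 7, 440 without KO-Veh replicate 10, 467 without KO-Veh replicate 4, and 161 to 979 under other alternatives, lowest by limma and highest by DESeq2. In KO-aKG against WT-aKG they numbered 304, against 188 and 145 without WT-aKG replicates 1 and 6, 163 and 133 without KO-aKG replicates 2 and 8, 145 without the filter and 599 without the cerebellum-rich libraries. In WT-aKG against WT-Veh they numbered 0, against 59 by DESeq2 and 1 with the covariate.

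The 7 correlations with Ttr stayed called throughout. Of the relations with marker lists, 9 were called, against 15 without subtraction of group means (the values within cerebellum and hindbrain clusters were taken without it in both counts) and 5 of 48 outside the cerebellum-rich libraries. The relation of Otx2 with hindbrain had rho of 0.300, or 0.187 with group means subtracted, outside these libraries (unadjusted permutation p = 0.162 and 0.358), values added after seeing the data. Counts of 0 to 64 per library for Folr1 and 1 to 44 for Aqp1 limit what can be said of these genes.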
